A study of Mus musculus with 2 samples.

Results

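Haptoglobin (Hp), ceruloplasmin (Cp), complement C3 (C3), complement C4B (C4b), lipocalin 2 (Lcn2), adipsin or complement factor D (Cfd), and the complement proteases C1s1 and C1ra were followed through cultured adipocyte precursors of white (WAT) and brown (BAT) adipose tissue. These 8 complement and acute-phase protein genes were taken as a named list from the 32285 genes of the table. Both groups came from C57/BL6J mice at P0, male and female, whose cells were pooled in 1 library per depot. WAT was the subcutaneous depot, digested with collagenase for 35 min, and BAT the interscapular depot, digested for 50 min, so depot, digestion and library cannot be told apart. Stromal-vascular cells of both depots grew in medium with 20% serum to confluency, reached in 4 days, before single-cell RNA sequencing on a 10x Genomics droplet platform, so they stand for cultured precursors and not for cells taken directly from tissue.

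Acute-phase proteins are secreted proteins whose amounts in plasma change during inflammation, and the liver is their best known source. Haptoglobin binds free haemoglobin, ceruloplasmin is a copper-carrying ferroxidase that helps load iron onto transferrin, and lipocalin 2 binds bacterial siderophores. Complement is a cascade of plasma proteases. C1s, held with C1r by C1q, cleaves C4 and C2 in the classical pathway, and factor D cleaves factor B in the alternative pathway. Both routes lead to cleavage of C3. Fat is a known source of several of these proteins, and adipsin takes its name from adipose tissue.

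The white library held 5261 captured cells and the brown library 7009, whose cells carried 26239 and 26411 unique molecular identifiers (UMIs, 1 per captured transcript molecule) at the median. After the limits on genes, UMIs and mitochondrial share, 4331 white and 5958 brown precursor cells remained, and the libraries shared 9 cell barcodes. The precursor markers Pdgfra, Pdgfrb, Dlk1, Dcn and Col1a1 summed to 6172 CPM (UMIs of a gene scaled to a common total, as in counts-per-million) in white and 5703 in brown precursor cells. The copy of the authors' label table used here was shortened to its first 1999 precursor cells per depot, so levels by cluster rest on those cells. They name early precursors (wAPC 1 to 4 and bAPC 1 to 5), committed adipocyte progenitors (wCAPs and bCAPs), fibro-adipogenic progenitor-like cells (wFAPLs and bFAPLs) and differentiating wFAPLs, a group of 15 cells here. These clusters were drawn from all variable genes of the same cells, so levels by cluster are a description. With 1 library per depot there was no replicate error and no test was possible, and intervals at 95% cover counting error only.

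On GRCm38 in GENCODE, the genes lie on 6 chromosomes. Hp (ENSMUSG00000031722) occupies chr8:109575128-109579172 on the minus strand, Cp (ENSMUSG00000003617) chr3:19957054-20009145 on the plus strand, and C3 (ENSMUSG00000024164) chr17:57203970-57228136 on the minus strand. C4b (ENSMUSG00000073418) lies at chr17:34728380-34743882, Lcn2 (ENSMUSG00000026822) at chr2:32384633-32388252, both on the minus strand, and Cfd (ENSMUSG00000061780) at chr10:79890853-79892655 on the plus strand. C1ra (ENSMUSG00000055172), on the plus strand at chr6:124512405-124523443, and C1s1 (ENSMUSG00000038521), on the minus strand at chr6:124530345-124542359, converge with 6901 bases between them. All 8 are annotated as protein-coding.

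RefSeq promoter windows of 300 bases on GRCm38.p6, from 250 bases before to 50 after the start site, were given for 6 of the 8 genes, without Hp and C4b. Shown are Cp, which moved with Hp across clusters, the pair C1ra and C1s1, C3, the point at which the pathways meet, and Cfd, which was found mainly outside the precursor cells. Capitals mark matches to a C/EBP motif (TTGCNNAA), a STAT motif (TTCNNNGAA), an NF-kB motif or a TATA box (TATAAA), searched on both strands. Adjoining capitals in Cp join overlapping TATA matches on the 2 strands.
Cp, chr3:19956999-19957298, plus strand: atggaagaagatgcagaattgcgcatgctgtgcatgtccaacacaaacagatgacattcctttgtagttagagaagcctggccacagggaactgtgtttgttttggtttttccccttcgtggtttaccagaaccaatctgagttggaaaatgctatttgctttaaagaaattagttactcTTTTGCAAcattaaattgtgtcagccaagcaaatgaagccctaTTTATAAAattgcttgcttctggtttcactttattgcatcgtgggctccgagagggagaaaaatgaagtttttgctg
C3, chr17:57228087-57228386, minus strand: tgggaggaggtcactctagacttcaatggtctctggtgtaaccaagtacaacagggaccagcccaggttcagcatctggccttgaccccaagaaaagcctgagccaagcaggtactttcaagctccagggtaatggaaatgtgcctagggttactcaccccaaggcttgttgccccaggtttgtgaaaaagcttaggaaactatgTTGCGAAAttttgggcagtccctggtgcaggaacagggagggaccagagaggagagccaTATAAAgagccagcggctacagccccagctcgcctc
C1ra, chr6:124512371-124512670, plus strand: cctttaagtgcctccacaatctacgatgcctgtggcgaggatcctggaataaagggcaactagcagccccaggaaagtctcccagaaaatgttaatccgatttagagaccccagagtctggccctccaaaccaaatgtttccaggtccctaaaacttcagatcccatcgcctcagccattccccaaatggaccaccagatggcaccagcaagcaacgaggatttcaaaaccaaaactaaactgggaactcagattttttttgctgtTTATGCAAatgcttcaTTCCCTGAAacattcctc
C1s1, chr6:124542310-124542609, minus strand: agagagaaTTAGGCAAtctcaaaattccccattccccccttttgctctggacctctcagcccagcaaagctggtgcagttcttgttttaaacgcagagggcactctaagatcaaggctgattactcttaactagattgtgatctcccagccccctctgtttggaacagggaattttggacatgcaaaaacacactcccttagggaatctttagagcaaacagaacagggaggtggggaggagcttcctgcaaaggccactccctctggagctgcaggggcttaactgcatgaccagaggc
Cfd, chr10:79890603-79890902, plus strand: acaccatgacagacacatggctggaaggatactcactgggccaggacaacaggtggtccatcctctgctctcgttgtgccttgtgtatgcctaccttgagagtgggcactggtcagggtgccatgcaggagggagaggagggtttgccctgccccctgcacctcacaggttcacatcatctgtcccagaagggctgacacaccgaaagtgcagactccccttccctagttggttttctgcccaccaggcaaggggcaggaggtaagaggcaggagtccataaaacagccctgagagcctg

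The C/EBP letters were present in windows of Cp, C3, C1ra, C1s1 and Lcn2 and absent from that of Cfd. Positions are counted from the start site of the printed window, which for Cp and C1ra lies inside the GENCODE span given above. In Cp the match began 70 bases before the start site and in C3 45 bases before it. Among 32817 promoter windows, 10.8% held the C/EBP letters, 8.29% the STAT letters, 5.56% the NF-kB letters and 13.6% the TATA letters. The STAT letters were found in C1ra, from base 33 after the start, and the NF-kB letters in none of the 6 genes. Cp and C1s1 had a second window each, without any match, and that of Cp had its start site at the GENCODE gene start. These matches are letters in a window and not evidence of binding.

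Hp was the member with the steepest change between clusters. In bCAPs it reached 308 CPM (95% interval 297 to 321, 2530 UMIs in 296 cells). In bFAPLs it stood at 54.7 CPM (49.5 to 60.2), and the 5 early brown clusters lay lower, at 18.6 in bAPC 2, 15.7 in bAPC 3, 14.1 in bAPC 1, 12.0 in bAPC 4 and 2.79 in bAPC 5. Among bAPC 1 to 4, neighbours in this order had overlapping intervals. bCAPs made up 14.8% of the labelled brown cells and held 71.3% of their Hp UMIs. In WAT the highest level was 25.3 CPM (23.1 to 27.7, 491 UMIs) in wCAPs, against 10.8 in wAPC 1, 6.29 in differentiating wFAPLs, 5.86 in wFAPLs and 5.67, 3.54 and 1.18 CPM for wAPC 2, wAPC 3 and wAPC 4. wCAPs, 33.7% of the labelled white cells, held 64.6% of the white Hp UMIs. Below wAPC 1, neighbours in the white order overlapped in their intervals. Among unlabelled white cells, given labels by their nearest neighbours, Hp was 4.64 CPM (3.66 to 5.81) in wAPC 1. It was 2.15 in wAPC 2 and 8.05 in wAPC 3, so the order below wCAPs did not hold there. wCAPs stayed highest, at 33.3 (31.0 to 35.7). For wAPC 1, wAPC 2, wAPC 3 and wCAPs the intervals in labelled and unlabelled cells did not overlap, so counting error did not cover these differences. The same held in BAT for bCAPs, at 356 CPM (346 to 365) in unlabelled cells, and for bAPC 2, at 25.7 (23.9 to 27.7). Among unlabelled brown cells the interval of bAPC 2 lay above that of bAPC 1, at 14.6 (13.4 to 15.9). Committed progenitors were the highest cluster for this haemoglobin scavenger in both depots.

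Cp followed the same order at the top. Its level was 132 CPM (125 to 140) in bCAPs, 61.2 (55.7 to 67.0) in bFAPLs, 40.1 in bAPC 1, 34.3 in bAPC 4, 29.2 in bAPC 3, 23.2 in bAPC 2 and 10.2 in bAPC 5. In WAT it was 22.9 CPM (20.9 to 25.2) in wCAPs, 14.3 in wAPC 2, 9.76 in wFAPLs, 8.15 in wAPC 3, 6.61 in wAPC 1, 4.19 in differentiating wFAPLs and 2.95 in wAPC 4. In labelled cells neighbours among bAPC 1 to 4 overlapped in Cp as well. Among unlabelled white cells Cp was 17.2 CPM (15.5 to 18.9) in wCAPs, below the interval of labelled wCAPs. There wCAPs overlapped wAPC 2, at 14.1 (11.9 to 16.6), so the white peak was not apart. Among unlabelled brown cells bAPC 2, at 27.5 (25.6 to 29.5), lay below bAPC 3, at 35.5 (31.6 to 39.8). Brown clusters other than bAPC 5 matched or exceeded the highest white cluster within counting error. Across the 14 clusters the Pearson correlation of log2(CPM + 1) between Hp and Cp was 0.88, and 4 of 10228 genes had a higher correlation with Hp. The points share 2 libraries, and the correlation is a description.

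**Figure D1:**
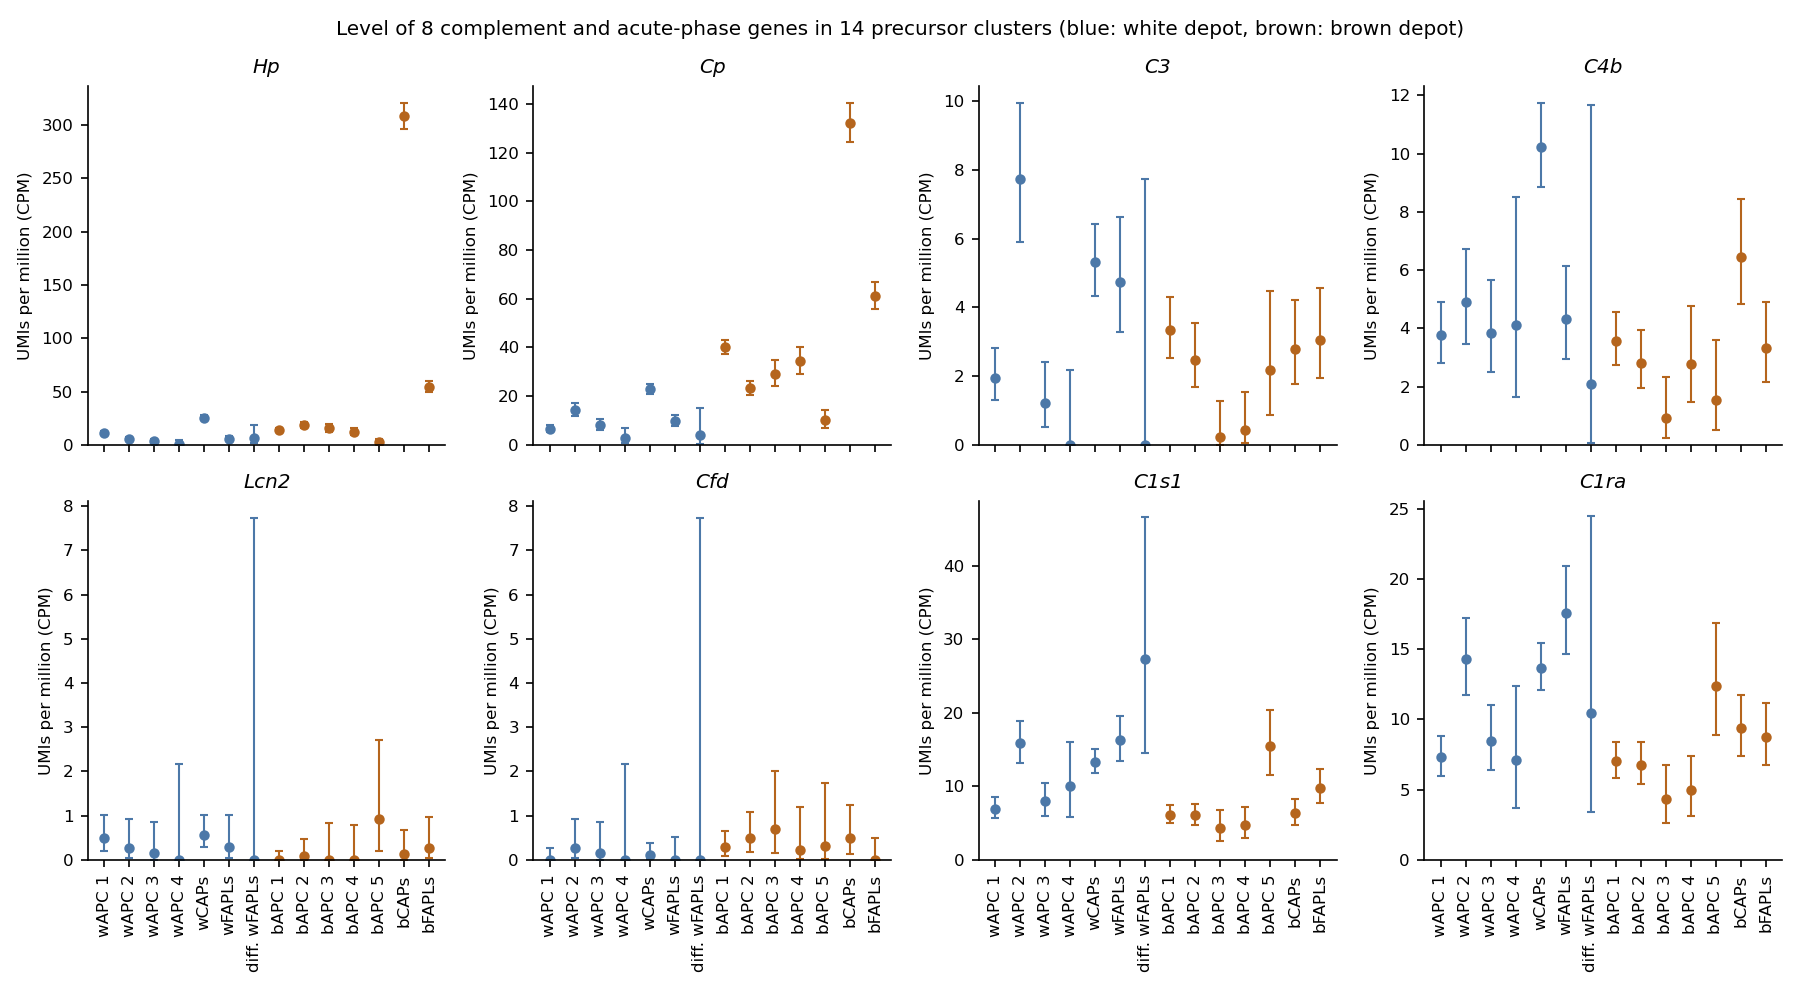
Level of each gene (y axis, CPM, a separate linear scale for each gene) in the 7 white (blue) and 7 brown (brown) precursor clusters on the x axis, with points for summed UMIs and bars for 95% Poisson intervals. Hp and Cp peak in bCAPs, at 308 and 132 CPM, while C1s1 and C1ra are higher in several white clusters, and Lcn2 and Cfd stay under 1 CPM in each cluster.

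Hp was unevenly spread among cells and Cp less so. To compare shares of cells, each was thinned to 10000 UMIs, which left out 1 white and 0 brown precursor cells. Hp then had a UMI in 55.4% of bCAPs, 20.8% of bFAPLs and 8.61% of wCAPs, and Cp in 60.5%, 33.0% and 16.9%. At full depth the Hp shares were 72.0%, 29.7% and 15.1%, and the Cp shares 84.5%, 54.5% and 30.0%. A single bCAP held up to 170 Hp UMIs, the median was 2, and 24.0% of bCAPs had 10 or more. The 10% of bCAPs with the most Hp held 58.9% of the cluster's Hp UMIs, against 35.6% for Cp. In wCAPs the top 10% held 92.9% of the Hp UMIs, the median was 0 and the highest cell had 71. The ratio of variance to mean in thinned cells, near 1 for pure sampling of like cells, was 17.4 for Hp and 2.09 for Cp in bCAPs. Values in other cell types of the libraries are given for reference, and the part of free RNA was not tested. Glial cells were shallower, with medians of 20672 UMIs (WAT) and 19495 UMIs (BAT) beside 26949 and 26413 for precursor cells. Hp was found in 1 of 47 white glial cells (2.13%) and 2 of 68 brown ones (2.94%), and Cp in 0 of 47 (Clopper-Pearson upper bound of 7.55% of cells with a UMI) and 2 of 68 (2.94%). In the brown library, myeloid cells had 16.9 CPM of Hp (11.8 to 23.3) and 12.2 CPM of Cp, and myogenic cells 14.2 CPM (7.74 to 23.8) and 12.1 CPM. In labelled cells the Hp intervals of bAPC 1 to 4 overlapped those of myeloid and myogenic cells of the same library. The same intervals of bAPC 1 to 4 lay above that of brown glial cells without 1 barcode described below (1.36 CPM, 0.164 to 4.90), whereas bCAPs and bFAPLs lay above all 3. In unlabelled cells bAPC 2, at 25.7 CPM (23.9 to 27.7), lay above the intervals of myeloid and myogenic cells.

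**Figure D2:**
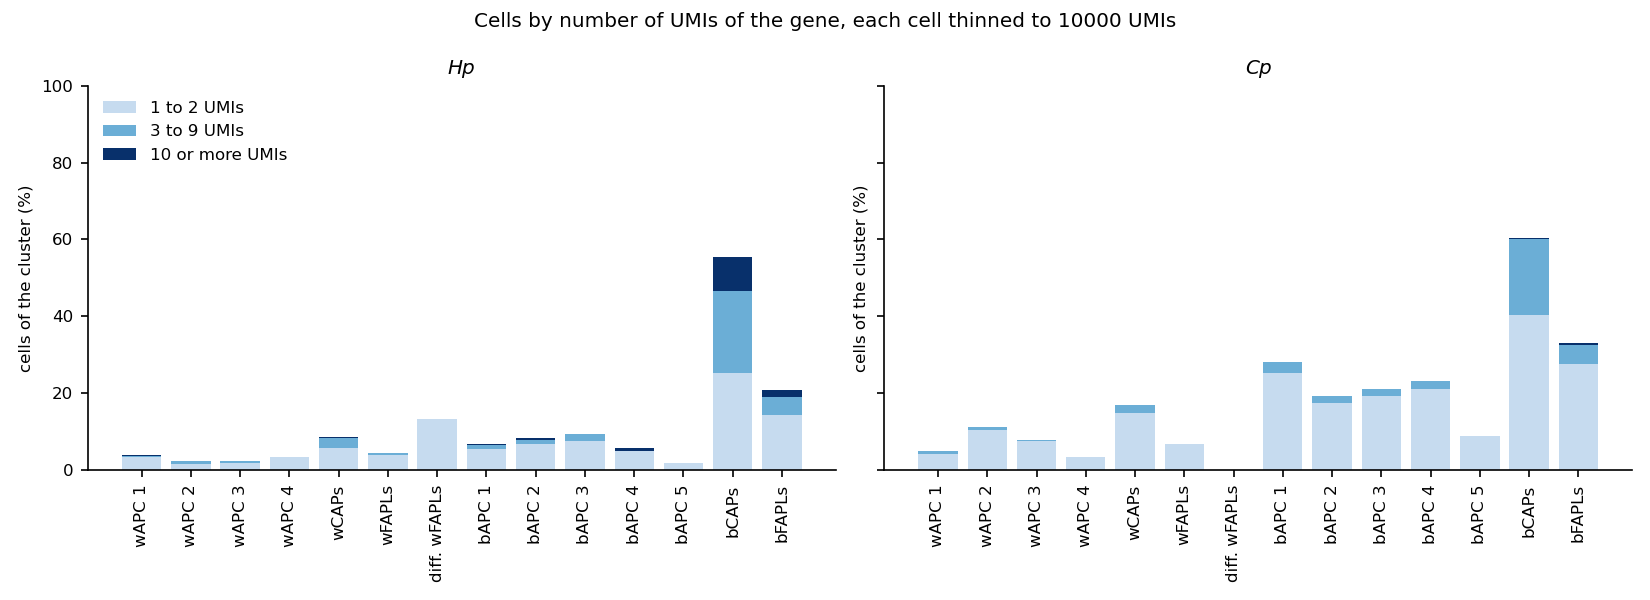
Share of cells (y axis, % of the cluster) with 1 to 2, 3 to 9, or 10 or more UMIs of Hp (left) and Cp (right) in the 14 clusters, each cell thinned to 10000 UMIs. In bCAPs 8.78% of cells keep 10 or more Hp UMIs, whereas 0.338% keep as many of Cp.

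The 2 acute-phase genes also separated the depots as a whole. White precursor cells had 14.2 CPM of Hp (13.5 to 14.9) and brown ones 64.3 (63.1 to 65.5), a 4.53-fold difference. For Cp they had 13.0 (12.3 to 13.6) and 50.6 CPM (49.6 to 51.7), a 3.91-fold difference. The white-over-brown log2 ratios were -2.18 (-2.25 to -2.11) and -1.97 (-2.04 to -1.89), the 11th and 15th lowest of 9037 genes with at least 10 CPM in either depot. Of the 4 members that met this minimum, 2 passed a 2-fold limit, both higher in BAT, where 1.84% of all genes passed it in either direction and 0.73% toward BAT. The difference was wider between matched clusters. wCAPs and bCAPs differed in Hp by a log2 ratio of -3.61 (-3.75 to -3.47), a 12.2-fold difference, and wFAPLs and bFAPLs by -3.22 (-3.72 to -2.76). Cp differed by -2.53 (-2.69 to -2.37) and -2.65 (-3.03 to -2.28) in the same pairs. Markers of 2 other cell types known for Hp were also summed in bCAPs. The 8 neutrophil markers summed to 2.56 CPM, with 5 of them at 0, and the 5 hepatocyte markers to 2.80 CPM. The part of other cell types in the depot differences was not tested.

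Within each depot, CAPs exceeded FAPLs in both genes. For wCAPs over wFAPLs the log2 ratio was 2.11 (1.66 to 2.60) for Hp, 1.23 (0.87 to 1.62) for Cp and 1.24 (0.69 to 1.84) for C4b. These were the 3 members past 2-fold of the 5 with at least 10 CPM, where 3.85% of all genes passed the limit 1.6% toward wCAPs and 2.25% toward wFAPLs. When labels were carried to all precursor cells, Cp fell to 0.88 and C4b to 0.93, which left Hp alone past 2-fold. For bCAPs over bFAPLs the log2 ratio was 2.50 (2.35 to 2.65) for Hp and 1.11 (0.95 to 1.27) for Cp, the 2 members that met the minimum. Among all genes 3.87% passed that limit, 2.01% toward bCAPs and 1.86% toward bFAPLs. Of 13 adipocyte genes 6 were tested, and 3 passed 2-fold toward CAPs and 0 toward FAPLs in each depot, with median log2 ratios of 0.76 in WAT and 0.93 in BAT. Pparg, the master regulator of adipogenesis, had a log2 ratio of 3.29 (2.94 to 3.66) in WAT and 2.45 (2.18 to 2.73) in BAT. For Lpl, lipoprotein lipase, the ratios were 1.65 (1.57 to 1.74) and 1.09 (1.02 to 1.17). The paper named the CAP clusters for their higher Pparg and Fabp4, so the direction of these genes was set by the labels. The adipocyte gene values are thus not independent of the labels and only describe the clusters. Summed myeloid markers were 43.8 CPM in wFAPLs and 7.98 in wCAPs, and mural markers 278 and 47.9. In BAT mural markers were 254 CPM in bFAPLs and 79.6 in bCAPs. Their part in these ratios was not tested.

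**Figure D3:**
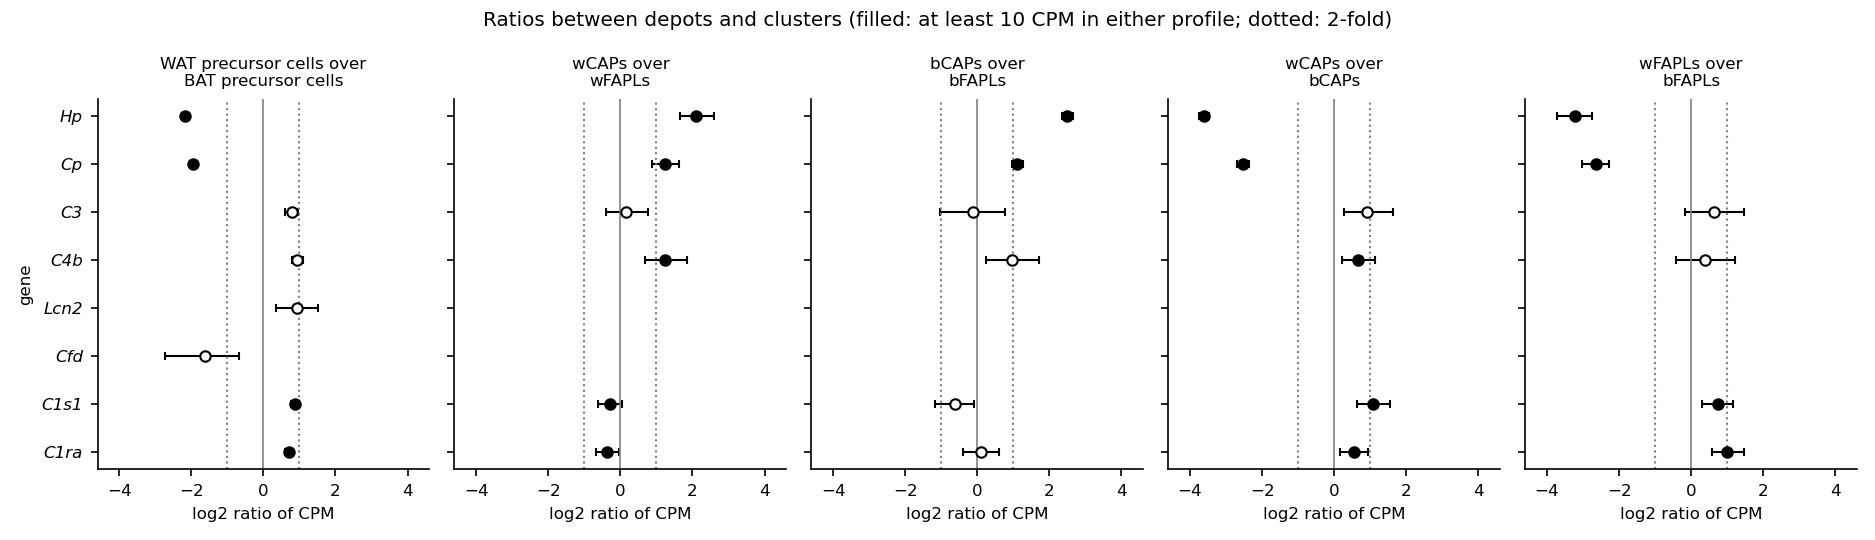
Log2 ratio of CPM (x axis) for each member (y axis) in the 5 comparisons, with 95% intervals for counting error, shown where either profile had at least 20 UMIs. The points of Hp and Cp lie beyond the dotted 2-fold lines in all 5 comparisons, on the brown side between depots and on the CAP side within them. Within depots the intervals of Cp reach below 2-fold.

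The protease pair of the classical pathway behaved differently from the acute-phase genes. White precursor cells had 12.4 CPM of C1s1 (11.8 to 13.1) and brown ones 6.78 (6.40 to 7.19), and for C1ra the levels were 12.4 (11.7 to 13.0) and 7.61 (7.20 to 8.04). The log2 ratios, 0.88 (0.76 to 0.99) and 0.70 (0.59 to 0.81), favoured WAT but were under 2-fold. In WAT, C1s1 ranged from 6.96 CPM (wAPC 1) and 7.99 (wAPC 3) through 10.0 (wAPC 4), 13.4 in wCAPs and 15.8 (wAPC 2) to 16.3 in wFAPLs and 27.3 (14.5 to 46.6, 13 UMIs) in differentiating wFAPLs. In BAT it was highest in bAPC 5, at 15.5 CPM (11.5 to 20.4), followed by 9.82 in bFAPLs, 6.34 in bCAPs, 6.11 in bAPC 1, 6.04 in bAPC 2, 4.72 in bAPC 4 and 4.34 in bAPC 3. The intervals of bAPC 5 and bFAPLs overlapped. bAPC 5 was also the brown cluster lowest in Hp and Cp.

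C1ra gave 17.6 CPM (14.6 to 20.9) in wFAPLs, 14.3 in wAPC 2, 13.7 in wCAPs, 10.5 in differentiating wFAPLs, and 8.46, 7.31 and 7.07 CPM for wAPC 3, wAPC 1 and wAPC 4. In BAT it gave 12.4 CPM (8.85 to 16.9) in bAPC 5, 9.39 in bCAPs, 8.76 in bFAPLs, 7.01 in bAPC 1, 6.78 in bAPC 2, 4.94 in bAPC 4 and 4.34 in bAPC 3. The intervals of bAPC 5, bCAPs and bFAPLs overlapped. Across the 14 clusters C1ra and C1s1 had a Pearson correlation of 0.81, while each correlated below 0 with Hp (-0.10 and -0.37) and Cp (-0.21 and -0.52). wCAPs exceeded bCAPs in C1s1 by a log2 ratio of 1.08 (0.64 to 1.53), and wFAPLs exceeded bFAPLs in C1ra by 1.01 (0.56 to 1.46), both intervals reaching below 2-fold. With Hp and Cp, each pair of matched clusters had 3 members past 2-fold of the 5 tested in CAPs and the 4 tested in FAPLs, where 4.32% of all genes passed between CAPs (2.18% toward wCAPs, 2.14% toward bCAPs) and 1.69% between FAPLs (1.04% toward wFAPLs, 0.646% toward bFAPLs). These comparisons share clusters and both libraries, so they are not independent of each other. The call of the third member did not hold throughout: C1s1 between CAPs was at 0.87 with thinned cells, 0.83 with carried labels and 0.75 in unlabelled cells, and C1ra between FAPLs at 0.97 with median scaling, 0.93 in G1, 0.96 with carried labels and 0.90 in unlabelled cells.

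C4b, encoding the substrate of C1s, was highest in the committed progenitors of both depots. It stood at 10.2 CPM (8.84 to 11.7, 198 UMIs) in wCAPs, 4.90 in wAPC 2, 4.32 in wFAPLs, and 4.12, 3.84 and 3.76 CPM for wAPC 4, wAPC 3 and wAPC 1, with 2.10 in differentiating wFAPLs. Among unlabelled white cells wCAPs had 8.63 CPM (7.48 to 9.91), an interval that overlapped that of wAPC 2, at 7.24 (5.69 to 9.09). bCAPs had 6.46 CPM (4.84 to 8.45, 53 UMIs), and the other brown clusters lay between 0.913 and 3.56. Against bFAPLs this was a log2 ratio of 0.96 (0.25 to 1.71), on 53 and 25 UMIs. In contrast to Hp and Cp, C4b was higher in WAT than in BAT, at 6.31 CPM (5.88 to 6.77) against 3.28 (3.01 to 3.56). The white-over-brown log2 ratio was 0.94 (0.79 to 1.10), with both levels under 10 CPM.

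C3, the central component, was low everywhere in the precursors. In WAT it was highest in wAPC 2, at 7.73 CPM (5.90 to 9.95), above wCAPs at 5.31 and wFAPLs at 4.74, whose intervals overlapped, while wAPC 1 had 1.95, wAPC 3 1.23 and wAPC 4 and differentiating wFAPLs 0 UMIs (upper bounds of 2.17 and 7.74 CPM). In BAT the range was 0.228 CPM in bAPC 3 to 3.34 in bAPC 1, with bFAPLs at 3.05 and bCAPs at 2.80. The depots had 4.59 CPM (4.22 to 4.98) and 2.66 CPM (2.42 to 2.92), a log2 ratio of 0.79 (0.61 to 0.97) toward WAT. CAPs and FAPLs were not separable, at 0.16 (-0.41 to 0.77) in WAT and -0.12 (-1.02 to 0.78) in BAT.

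Lcn2 and Cfd were scarcely detected in precursor cells. Lcn2 had 61 UMIs in 4331 white cells (0.496 CPM, 0.380 to 0.638) and 44 in 5958 brown cells (0.26 CPM, 0.19 to 0.348), and no labelled cluster passed 1 CPM. Cfd had 11 UMIs in WAT (0.09 CPM) and 47 in BAT (0.277 CPM), with no cell above 1 UMI in WAT or above 3 in BAT. A Cfd UMI was found in 0.254% of white and 0.705% of brown precursor cells. At this depth no order of the clusters could be read for either gene.

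Cfd was instead concentrated in captured cells that the filter had removed. Of 1198 Cfd UMIs in the white library, 98.9% lay in cells with over 5% mitochondrial UMIs, and of 1797 in the brown library, 89.3%. A rule set after these values were seen, which uses none of the 8 genes, picked captured cells with UMIs of Adipoq (adiponectin), Plin1 and Cidec (lipid droplet proteins of adipocytes). It found 3 white cells, all removed by the filter, and 9 brown cells, of which 8 were removed. The white cells held 154, 201 and 575 Cfd UMIs, or 16669 CPM (15615 to 17776), and 77.6% of the library's Cfd. The brown cells held from 2 to 388 with a median of 99, or 7879 CPM (7482 to 8291), and 82.1% of the library's Cfd. Their mitochondrial shares were 12.3% to 17.4% in WAT and 2.97% to 22.1% in BAT. They also held 20792 CPM of Fabp4, a fatty acid carrier, in WAT and 21675 in BAT, and 0 and 1 UMI of Pdgfra, a precursor marker, while single brown cells held up to 147 UMIs of the collagen gene Col1a1.

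The same cells held high levels of other members. Hp reached 2922 CPM (2490 to 3406) in the 3 white and 6100 CPM (5751 to 6464) in the 9 brown cells, with 15 or more UMIs in each cell. Lcn2 reached 753 and 1047 CPM, C3 305 and 721, and C4b 161 and 58.8, each above its level in precursor cells of that depot. Cp, at 71.7 CPM (19.5 to 184) on 4 UMIs and 107 CPM (65.3 to 165) on 20, had a smaller excess. C1s1 and C1ra had 0 UMIs in the white cells, with an upper bound of 66.1 CPM, and 3 and 4 UMIs in the brown cells. One brown barcode that clustered with glia held 111 Cfd, 73 Hp and 17 Lcn2 UMIs beside 6 of Adipoq. Without it, Hp in brown glial cells went from 49.6 CPM to 1.36 and Cfd from 74.1 to 0.679.

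**Figure D4:**
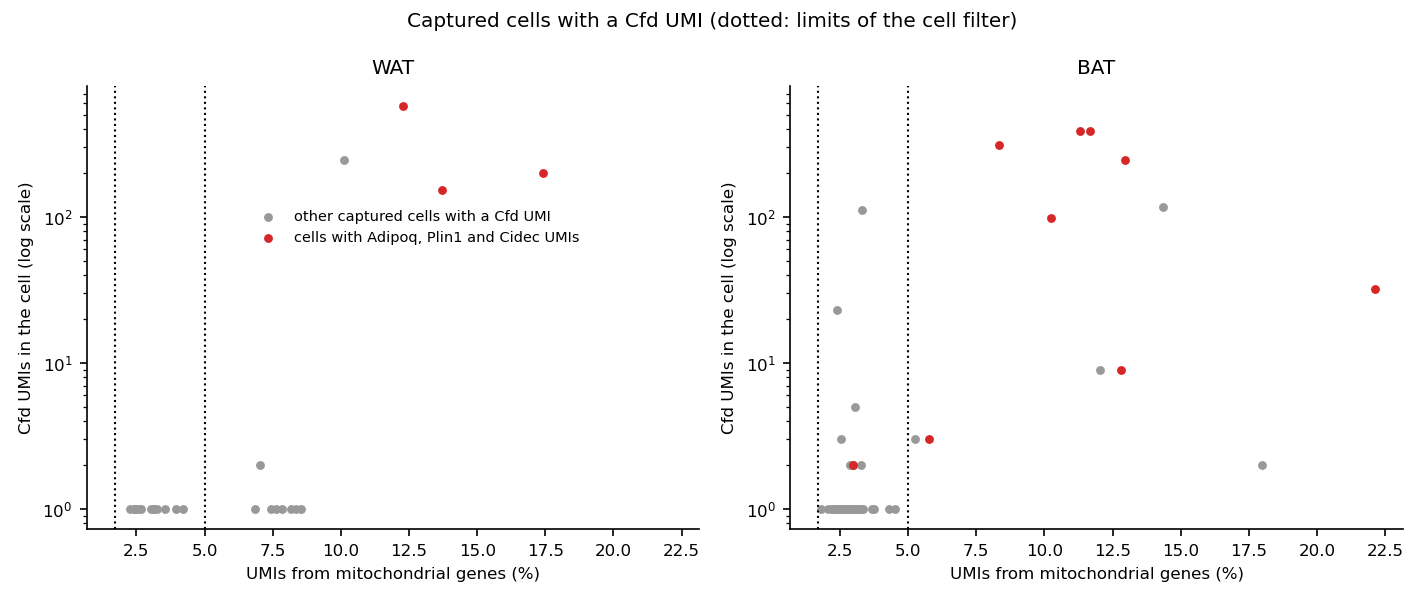
Cfd UMIs per captured cell (y axis, log scale, cells with at least 1) against the share of UMIs from mitochondrial genes (x axis, %) in the white (left) and brown (right) library, with cells that have Adipoq, Plin1 and Cidec UMIs in red and the filter's limits of 1.7% and 5% dotted. The 3 red white cells hold 154 to 575 Cfd UMIs and lie beyond 12%, whereas white cells inside the limits hold 1 each.

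Paralogs were checked because reads could be split between them. C4a, annotated as a processed transcript, had 38 UMIs in white and 36 in brown precursor cells against 776 and 556 of C4b, C1rb 4 and 3, and C1s2 17 and 10. Of 90-base windows in the last 500 bases of the longest transcript, 20.2% of C4b matched C4a exactly, 11.2% of C1ra matched C1rb and 2.68% of C1s1 matched C1s2. Reads from such stretches could have been lost from the counts, so the levels of C4b and C1ra may be low.

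Over all precursor cells, members other than Cfd were higher in G1 than in G2/M cells in both depots. The log2 ratio of G1 over G2/M in precursor cells was 0.36 (0.20 to 0.53) in WAT and 0.52 (0.45 to 0.59) in BAT for Hp, 0.78 (0.59 to 0.98) and 0.35 (0.27 to 0.43) for Cp, and 0.69 (0.50 to 0.89) and 0.74 (0.51 to 0.98) for C1s1. For Cfd the brown interval, -0.62 to 1.72, included 0. Within single clusters the pattern was less even. For Cp the ratio was 1.30 (0.82 to 1.81) in wCAPs, 0.36 (0.13 to 0.59) in bCAPs and 0.47 (0.12 to 0.84) in bFAPLs. For Hp it was 0.29 (-0.06 to 0.66), 0.53 (0.38 to 0.69) and 0.78 (0.37 to 1.22) in the same clusters. In wFAPLs, with 50 cells in G2/M, both intervals included 0, at -0.11 (-1.21 to 1.11) for Hp and -0.63 (-1.41 to 0.19) for Cp.

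The rest of the pathway was divided among cell types. C1q, the recognition unit that holds C1r and C1s, was far higher in myeloid cells: C1qa, C1qb and C1qc had 1737, 1855 and 1242 CPM in white and 1487, 1835 and 1187 CPM in brown myeloid cells, and under 1 CPM over all precursor cells. In wFAPLs, whose summed myeloid markers were the highest of the clusters, they reached 3.63, 7.67 and 4.46 CPM. C1ra had 1 UMI in the 29 white and 6 in the 78 brown myeloid cells. The receptors C3ar1 and C5ar1 followed C1q, with 497 and 383 CPM in white myeloid cells against 0.122 and 0.0732 in white precursor cells. Cfb, the substrate of factor D, had 0.911 CPM in white and 0.478 in brown precursor cells, and Cd163, the haptoglobin-haemoglobin receptor of macrophages, had 0 UMIs in the labelled clusters.

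Of 19 classical and lectin pathway genes, 5 reached 10 CPM in some cluster, including 3 members. The others were Colec12, a scavenger receptor, at 192 CPM in wCAPs and 128 in wFAPLs, and Masp1, a lectin-pathway protease, which was higher in bCAPs than bFAPLs by a log2 ratio of 1.72 (1.05 to 2.44). None of 11 alternative and terminal pathway genes reached it. Of 12 regulators, 6 did. Serping1, the inhibitor of C1r and C1s, ran opposite to Hp and Cp: 31.6 CPM in wCAPs, 98.2 in wFAPLs and 218 in differentiating wFAPLs, and 54.5 in bCAPs and 91.1 in bFAPLs. Its CAP-over-FAPL log2 ratio was -1.63 (-1.79 to -1.48) in WAT and -0.74 (-0.92 to -0.57) in BAT. Serping1 was the 1 regulator past 2-fold of the 2 tested in WAT, and 0 of 4 passed in BAT, where 3.85% and 3.87% of all genes passed. Csmd1 had a larger log2 ratio in WAT, -3.33 (-4.17 to -2.56), and -0.38 (-0.83 to 0.07) in BAT. For Clu the ratios were -1.32 (-2.01 to -0.62) and -0.42 (-0.84 to -0.01). Both genes stayed under 10 CPM in wCAPs and wFAPLs and so were not tested in WAT.

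Of 29 acute-phase genes, 8 reached 10 CPM in a cluster. Of those tested within depots, 3 of 7 passed 2-fold toward wCAPs (Hp, Cp and Saa3) and 2 of 7 toward bCAPs (Hp and Cp), with 0 toward FAPLs in both. Among all genes 1.6% passed toward wCAPs, 2.25% toward wFAPLs, 2.01% toward bCAPs and 1.86% toward bFAPLs, so 0 of 7 toward FAPLs is near the background. The median log2 ratio was 0.18 in WAT and 0.23 in BAT, beside 0.01 and 0.04 over all genes tested, and the differences of Hp and Cp were thus not those of the list as a whole. Saa3, a serum amyloid gene, had 14.6 CPM in wCAPs and 2.37 in wFAPLs, but 2.44 in bCAPs and 5.70 in bFAPLs. Mt2, a metallothionein, had 85.8 and 75.6 CPM in the white pair and 40.1 and 64.6 in the brown pair.

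Among genes of acute-phase signalling, 23 of 24 reached 10 CPM. In the CAP comparisons 1 of 22 tested passed 2-fold in WAT and 0 of 21 in BAT, shares near the 3.85% and 3.87% of all genes. The 1 gene was Il6, which was lower in wCAPs than wFAPLs by a log2 ratio of -1.78 (-2.25 to -1.31). Il6ra, its receptor, had 9.03 CPM in wCAPs and 4.74 in wFAPLs, a ratio of 0.93 (0.39 to 1.50). Cebpb, a transcription factor of both the acute phase and adipogenesis, had 188 CPM in wCAPs and in wFAPLs, but 107 in bCAPs and 188 in bFAPLs, a log2 ratio of -0.81 (-0.93 to -0.69). Nfkbia, an NF-kB inhibitor, had 69.7 CPM in wCAPs and 43.4 in wFAPLs. Among iron genes, Slc40a1 (ferroportin), the iron exporter that works with ceruloplasmin, was 32.8 CPM in wCAPs against 4.88 in wFAPLs and 12.4 in bCAPs against 2.39 in bFAPLs. Its log2 ratios were 2.75 (2.26 to 3.28) and 2.38 (1.65 to 3.19). Heph, a second ferroxidase, did not separate bCAPs from bFAPLs, at 0.10 (-0.23 to 0.43). Slc22a17, a lipocalin 2 receptor, lay between 4.80 and 14.3 CPM.

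By likeness of pattern over the 14 clusters, Psd4 came first for both Hp (Pearson correlation 0.91) and Cp (0.92), with 11.6 CPM in bCAPs and 3.35 in wCAPs. Rspo2, a secreted amplifier of Wnt signalling, was among the 3 most alike to Cp, at 0.90. Fgf10, a growth factor of adipose development, was second for C4b at 0.83, with 37.1 CPM in wCAPs and 4.46 in wFAPLs. Podn, a matrix proteoglycan, was second for C1s1 at 0.92, and Fos, an immediate early gene, first for C1ra at 0.87.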

How the data were processed

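The values deposited by the authors are raw UMI counts, 1 value for each gene in each cell and not normalized, from Cell Ranger 7.0.1 with the mm10 mouse reference and its cell calls. Cells with 3900 to 7700 genes, 1.7 to 5% mitochondrial UMIs and 6000 to 60000 UMIs were kept, counting genes found in at least 3 cells. Cells were clustered again in R 4.3.3 using Seurat 5.3.0 (2000 variable genes, 10 principal components, resolution 0.5), and those with at least 3 glial, myeloid or myogenic markers at 50 CPM and over 2 times the others were left out. No doublet caller was run. The copy of the authors' label table used here was shortened to its first 1999 precursor cells per depot. For the others, 15 nearest neighbours voted, which returned 91.7% of white and 88.0% of brown labels when held out.

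UMIs were summed per cluster and scaled to CPM with exact Poisson intervals. Ratios have conditional binomial intervals and shares Clopper-Pearson intervals, at 95%, checked on simulated data. A member passed 2-fold with at least 10 CPM in either profile and an absolute log2 ratio over 1. Thinning drew 10000 UMIs per cell. Sums and intervals used scikit-learn 1.9.0, pandas 2.3.3, numpy 2.4.6 and scipy 1.17.1 under Python 3.11.15. The alternatives varied depth, scaling, cell sets, cycle phase, labels and the minimum.

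The members and lists were chosen with earlier results of these data known. Genes named are the 8 members, their paralogs, the genes of each wider list with at least 10 CPM in a cluster that had the largest CAP-over-FAPL ratios (up to 4) or a direct partnership with a member, and the 3 genes most alike in pattern to each member. C1qa, C1qb, C1qc, C3ar1, C5ar1, Cfb, Cd163 and the genes describing the adipocyte-marker cells fell outside this rule and were named after their values were seen.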

Additional observations from a re-analysis of the deposited data

Results flagged for a closer look

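Cells with Adipoq, Plin1 and Cidec UMIs, all removed by the cell filter except 1 brown cell, stood above precursor cells of their library in 6 members. The log2 ratio over precursor cells was 17.51 in WAT and 14.79 in BAT for Cfd, 10.57 and 11.98 for Lcn2, 7.69 and 6.57 for Hp, 6.05 and 8.08 for C3, and 4.68 and 4.16 for C4b. For Cp it was lower, at 2.47 (0.59 to 3.83) and 1.08 (0.37 to 1.71). The share of all genes that stood above precursor cells in the same way was not computed, so the 6 have no background beside them. These values rest on 3 white and 9 brown cells, the rule for which was chosen after seeing the data. Their share of mitochondrial UMIs was high, with a median of 13.7% in WAT and 11.3% in BAT, and its part in the result was not tested.

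For 6 acute-phase, signalling and iron genes the CAP-over-FAPL log2 ratio had opposite signs in the depots, with both counting intervals apart from 0. These lists held 8, 23 and 7 genes that reached 10 CPM in a cluster. The rule set no 2-fold limit, and the share of all genes that meet it was not computed, so the 6 have no background beside them. The difference between depots was not tested, since there was 1 library each. The ratio was 2.62 in WAT and -1.23 in BAT for Saa3, a serum amyloid gene of fat and macrophages that also had 32.7 CPM in wAPC 2. The other 5 were smaller: -0.59 and 0.13 for Cebpd, 0.39 and -0.37 for Hmox1, 0.0949 and -0.25 for Mt1, 0.18 and -0.69 for Mt2, and -0.22 and 0.23 for Ptx3. Cebpd, Hmox1, Mt1 and Ptx3 are named here for this difference, after their values were seen.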

How the results depend on the processing

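No paired analysis was possible because each depot has 1 library. The number of members past 2-fold stayed within 1.5 times its value under the alternatives tried, with 3 exceptions. For wCAPs over wFAPLs it went from 3 to 1 with labels carried over to all precursor cells and to 1 in cells without an authors' label, where Cp and C4b fell below 2-fold (log2 ratios of 0.53 and 0.65 in the unlabelled cells). For wCAPs over bCAPs it went from 3 to 5 with no minimum level, where members with few UMIs entered. Between depots, a count within that range could hide an exchange: in FAPLs C1ra fell below 2-fold and C1s1 rose past it, at 1.04 with carried labels and 1.29 in unlabelled cells. Of 220 ratios recomputed for single members, 188 stayed inside the counting interval, 32 moved outside it and 0 ratios past 2-fold at 10 CPM changed sign. Scaling by the median ratio over genes shifted ratios by at most 0.04. With equal weight for each cluster the white-over-brown log2 ratio of Hp was -2.86. Counting every captured cell, which adds the adipocyte-marker cells, took Cfd from -1.63 to -0.08 and Lcn2 from 0.94 to -0.63, and without those cells Cfd was at 0.24 and Lcn2 at 0.27. C3 in bCAPs over bFAPLs went from -0.12 to 1.14 with thinned cells. Depth limits Lcn2 and Cfd most, and with 1 library per depot the spread between animals or cultures is unknown.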
